A study of Sus scrofa with 36 samples.

Results

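Interferon-stimulated genes are the genes that cells switch on after interferon binds its receptors, and 39 of them were followed here by symbol in a pig heart infarction data set. Of these, 35 matched a row of the deposited count table, and 35 of 35 passed the filter on low counts, out of 14537 rows that passed and 25880 rows in all. IFIT3, OAS1, XAF1 and RTP4 matched no symbol and are not analysed here. DDX58, which encodes the RNA sensor RIG-I, was read from the row that carries its newer symbol, RIGI.

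Type I and type III interferons signal through paired receptors and the kinases JAK1 and TYK2 to a complex that holds STAT2 and IRF9, which enters the nucleus and drives most of these genes. Their products bind foreign RNA, block translation, trap viral particles, attach the ubiquitin-like protein ISG15 to other proteins, or sense nucleic acids and so feed back on the same pathway. In the infarcted heart, nucleic acids released from dying cells are a known trigger of interferon signalling in macrophages, and IRF1, the guanylate-binding proteins and CXCL10 also respond to interferon gamma from lymphocytes.

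The left ventricles of 24 Yorkshire-landrace pigs gave 36 RNA libraries in 12 groups of 3. Surgery was done at day 2 of life (Young) or day 14 (Old), and hearts were taken 1 day (Early) or 7 days (Late) later, so the pigs were 3 (Young Early), 9 (Young Late), 15 (Old Early) or 21 (Old Late) days old at harvest. In 12 pigs, branches of the left anterior descending and circumflex coronary arteries were tied off for good, and each gave a library from the infarct zone (IZ) and another from the border zone (BZ). The 12 Sham pigs gave a library each from the anterior left ventricular wall. All pigs received the pain reliever ketoprofen, which is anti-inflammatory, and the antibiotic enrofloxacin after surgery, per the labels' protocols. Each library is labelled with its pig, so the 3 replicates of a group are separate animals.

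Library totals ran from 8.11 M (Young Late Sham 2) to 39.8 M (Young Early BZ 2) counts, and RNA integrity numbers from 6.3 to 8.4. Values in CPM (counts per 1 M counts of the library) are given after TMM scaling. The 5 cardiomyocyte markers found summed to at least 17440 CPM in every library and to between 56380 and 85160 CPM in the Sham libraries, so muscle was sampled throughout. Library preparation batch was 1 for Young Early, 2 for Old Early, 3 for Old Late, and 1 or 2 within Young Late, so that age, time and batch cannot be told apart in comparisons between these sets. Young Early BZ 2 stood apart from its group, with a TMM factor of 0.578 and an SD over all genes of 1.44 (log2) around the mean of the other libraries of its group, against at most 0.855 in any other library. Old Early Sham 3 stood apart in the genes described here and is shown separately.

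The members differ widely in abundance. Per kilobase of exon, the median level over 36 libraries was highest for IFI6 (58.7 CPM per kb), a membrane protein of the endoplasmic reticulum, followed by BST2 (24.6), the tetherin that holds budding virus at the cell surface, and IRF9 (18.5). It was lowest for OASL (0.0395), a relative of the oligoadenylate synthetases, and for RSAD2 (0.397), the enzyme viperin, which makes a chain-terminating nucleotide. RSAD2 also spanned the widest range among the better counted members, from 0.295 CPM in Young Early IZ 2 to 107 CPM in Old Early Sham 3.

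Averaged over the 35 members, the level in a library is the mean log2 CPM. The lowest groups were the 3 Young Early groups, at 2.29 ± 0.23 (SD, n = 3) in Sham, 2.32 ± 0.06 in BZ and 2.52 ± 0.19 in IZ. The middle of the order was held by Old Early IZ at 3.02 ± 0.35, Young Late Sham at 3.18 ± 0.53, Old Early BZ at 3.25 ± 0.24, Old Late Sham at 3.33 ± 0.57, Young Late BZ at 3.49 ± 0.63 and Old Late BZ at 3.51 ± 0.20. Neighbours in the order so far overlapped in their libraries, with an exception. The Young Early IZ libraries (2.41, 2.41 and 2.73) all lay above the Young Early BZ libraries (2.31, 2.27 and 2.38).

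The highest groups were Old Late IZ at 4.00 ± 0.25 and Young Late IZ at 4.21 ± 0.48. The Old Late IZ libraries stood at 3.92, 3.81 and 4.28, and the Young Late IZ libraries at 3.67, 4.55 and 4.42, so these groups overlapped as well. Old Late BZ, whose libraries ran from 3.30 to 3.68, did not overlap Old Late IZ. Old Early Sham had a mean of 3.74 with an SD of 1.51, the widest spread of the 12 groups, and a mean of 2.98 over replicates 1 and 2 alone.

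**Figure D1:**
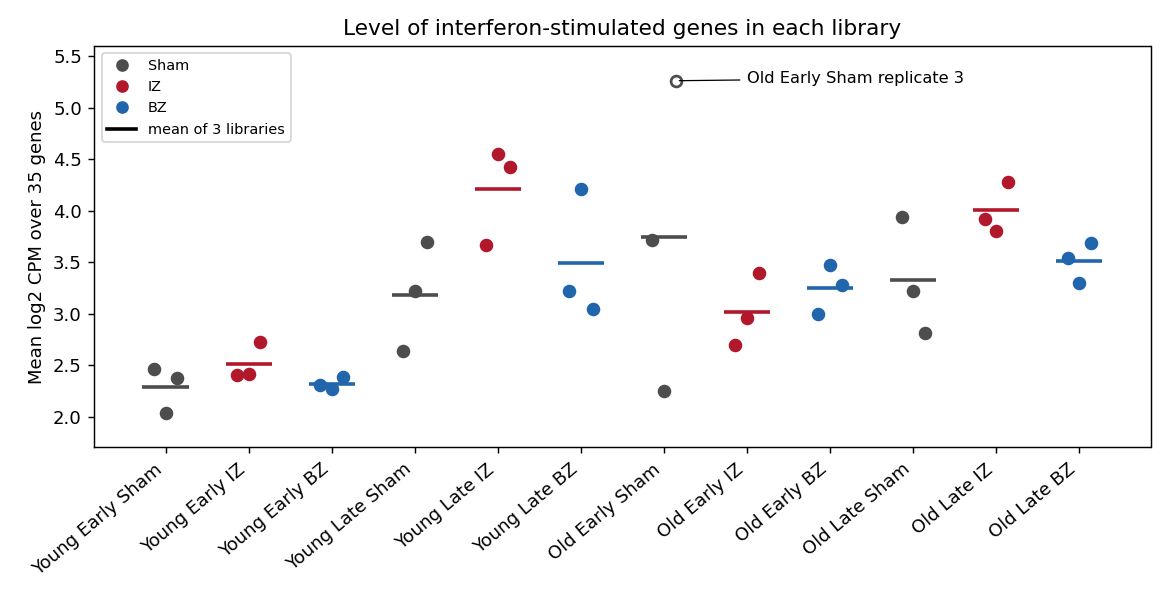
Mean log2 CPM of the 35 members in each of the 36 libraries (points), with the group mean (line), by age, time and tissue; Old Early Sham replicate 3 is marked. It lies at 5.26, above every other library, while the other libraries of its group lie at 3.72 and 2.25.

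In Old Early Sham, the members stood at very different levels in pigs with the same label. The mean log2 CPM was 3.72 in replicate 1, 2.25 in replicate 2 and 5.26 in replicate 3, so that replicate 3 was the highest of 36 libraries and replicate 2 the second lowest. Summed over members this was 821.4, 262.8 and 2169 CPM. Replicate 3 lay 2.28 (log2) above the mean of the other 2, 1.55 above the higher of them and 0.71 above the next library, Young Late IZ 2, a distance that shrank to 0.143 above Old Late IZ 3 when library totals replaced TMM scaling.

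All 35 members were highest in replicate 3 of the 3 Old Early Sham libraries, which was so for 36.2% of all genes tested. Of the members, 29 exceeded the higher of the other 2 libraries more than 2-fold, against 2.05% of all genes, with a median difference of 1.36 (log2) for members and −0.10 for all genes. The order replicate 2, then 1, then 3 held for 33 of 35 members, the exceptions being IRF1 and TRIM25. Among 10590 ranked genes, 34 of them members, the largest differences from the higher library included 8 members in the first 20, 16 in the first 50 and 22 in the first 100. These are values of a single pig and carry no test.

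Among the antiviral effectors, RSAD2 was counted at 16.5, 1.87 and 107 CPM in Old Early Sham replicates 1, 2 and 3. MX2 and MX1, dynamin-like GTPases that trap viral nucleocapsids, stood at 22.2, 6.97 and 118 and at 22.7, 3.28 and 109 CPM. OAS2, which makes the oligoadenylates that activate RNase L, stood at 69.6, 21.1 and 218 CPM. Replicate 3 was the highest library for each of these, by 6.43-fold over replicate 1 for RSAD2, 5.29-fold for MX2, 4.81-fold for MX1 and 3.12-fold for OAS2.

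The ISG15 system followed the same order. ISG15 itself stood at 46.5, 5.26 and 163 CPM, and HERC5, the ligase that attaches it, at 8.46, 3.12 and 41.7 CPM. Among the sensors, DDX58 stood at 13.7, 6.45 and 61.1 CPM. IRF7, the transcription factor that amplifies type I interferon production, stood at 11.9, 3.33 and 44.5 CPM and CXCL10, a chemokine for T cells, at 11.8, 0.729 and 38.9 CPM. The smallest excess was that of IRF1, a transcription factor best known for its response to interferon gamma, at 10.6, 12.2 and 16.3 CPM, where replicate 3 was 1.33-fold above replicate 2.

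OASL had 77 counts in replicate 3, 1 in replicate 1 and 0 in replicate 2, and it is given as counts only. A count of 0 allows up to 3 counts, counting error alone considered.

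The 9 macrophage markers summed to 164.1, 200.9 and 224.6 CPM in the 3 Old Early Sham libraries, with replicate 3 at the upper end, and the 8 lymphocyte markers found summed to 36.12 CPM in replicate 3, between 32.84 and 39.79 in the others. The cardiomyocyte sum was 56790 CPM in replicate 3 and 56730 and 57720 in the others, and the 3 neutrophil markers found summed to under 1 CPM in each. The 4 fibroblast markers summed to between 412.4 and 619.8 CPM and the 4 dendritic cell markers found to between 31.12 and 35.51 CPM, both highest in replicate 3. The 4 endothelial markers found summed to between 273.7 and 288.7 CPM, with replicate 3 between the others. The part of cell composition in the gap of Old Early Sham 3 was not tested. The RNA integrity number of replicate 3 was 7.4, between 7.1 and 7.6, and its total of 28.5 M counts was above 18.6 and 25.5 M. All 3 libraries were prepared in batch 2. None of IFNB1, IFNE, IFNK or IFN-DELTA-1 had a count in any of 36 libraries, and IFNG had 20 counts over 15 libraries, with 0 in Old Early Sham 3. The other ligands listed, IFN-ALPHA-8, IFN-OMEGA-1, IFNL1 and IFNL3, matched no row and were not analysed here.

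**Figure D2:**
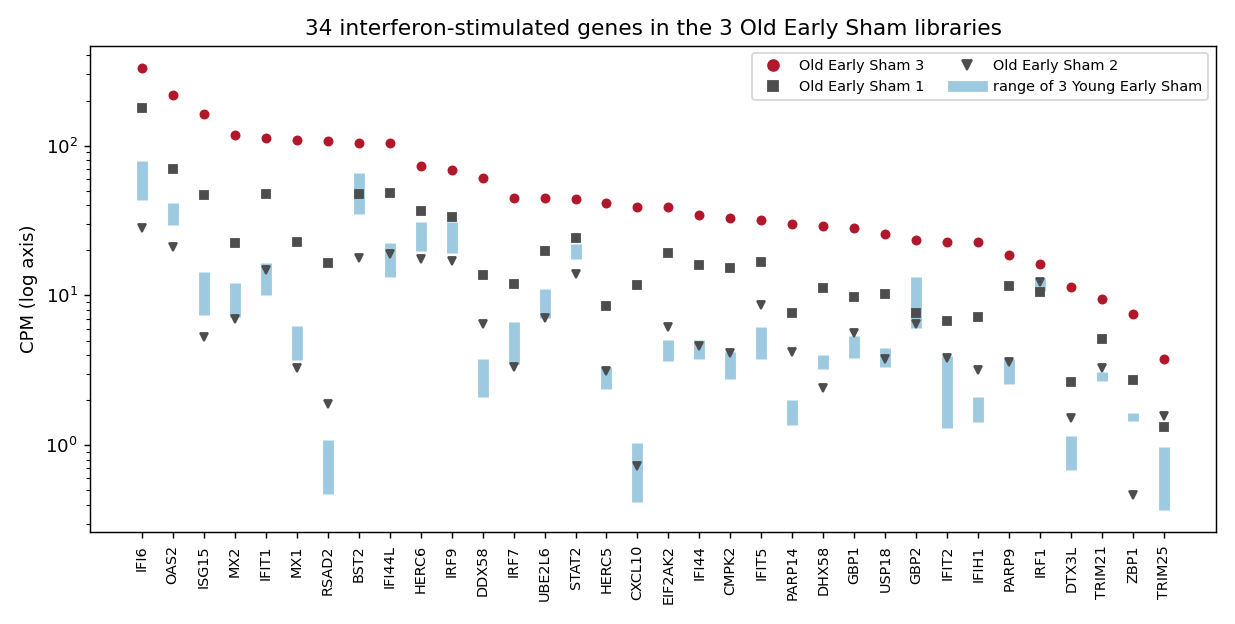
CPM (log axis) of 34 members, all but OASL, in Old Early Sham replicates 1, 2 and 3 (points), with the range of the 3 Young Early Sham libraries as a bar. Replicate 3 is the highest point for each gene, from 329 CPM for IFI6 to 3.78 CPM for TRIM25.

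In Young pigs 7 days after infarction, the interferon transcription factors, guanylate-binding proteins, CXCL10 and BST2 were called higher in IZ than in Sham. Of 35 members 12 rose and 0 fell in Young Late IZ against Sham, where edgeR called 17.2% of all 14537 genes higher and 13% lower. The median log2 fold change was 0.92 for members and 0.03 for all genes, 32 of 35 members were above zero, and for 8 of the 12 every IZ library exceeded every Sham library. Fold changes are log2 values ± the standard error of the edgeR fit, with 3 libraries a group and p adjusted over all genes by Benjamini-Hochberg.

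All 4 transcription factors rose. IRF1 was counted at 13, 10.8 and 20.7 CPM in Young Late Sham and 22.8, 67.3 and 57.2 in IZ, a difference of 1.72 ± 0.33 (adjusted p = 0.000272). IRF7 went from 7.74, 8.8 and 13.2 to 30.9, 48.5 and 41.3 CPM, or 2.02 ± 0.59 (adjusted p = 0.0106). For both, the lowest IZ library lay above the highest Sham library.

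IRF9, the DNA-binding part of the STAT complex, rose by 1.13 ± 0.33 (adjusted p = 0.011), from 25.4, 20.3 and 42.4 to 47.7, 74.4 and 71 CPM, without overlap. STAT2, its partner, was at 22.6, 28.1 and 36.8 CPM in Sham and 32.9, 68.1 and 64.2 in IZ, a rise of 0.92 ± 0.31 (adjusted p = 0.0248) in which IZ 1 lay below Sham 3. The STAT2 row overlaps exons of PAN2 on the same strand and the IRF9 row those of REC8, so reads of these neighbours may be shared.

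Of the 3 genes in the guanylate-binding and chemokine group, all rose. CXCL10 had the largest change among the 12, 2.87 ± 0.87 (adjusted p = 0.0133), from 1.15, 2.13 and 9.27 CPM in Sham to 7.87, 36.6 and 48.7 in IZ, with IZ 1 below Sham 3. GBP1 was at 6.84, 6.67 and 36.4 and 20.3, 88.8 and 78.4 CPM (1.89 ± 0.58, adjusted p = 0.0141), and GBP2 at 7.2, 6.8 and 24.3 and 11, 48.4 and 41.3 CPM (1.38 ± 0.51, adjusted p = 0.0406). In each of the 3 genes Sham 3 and IZ 1 overlapped, Sham 3 being the high Sham library and IZ 1 the low IZ library.

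Only 2 of 14 antiviral effectors rose. BST2 stood at 20.7, 18.5 and 20.9 CPM in Sham and 101, 116 and 90.3 in IZ (2.35 ± 0.48, adjusted p = 0.000526). IFI6 went from 75.5, 58.1 and 76.3 to 243, 341 and 249 CPM (1.99 ± 0.64, adjusted p = 0.0198). RSAD2, at 2.2, 8.13 and 12.2 CPM in Sham and 3.19, 5.34 and 5.13 in IZ, did not pass the test (−0.71 ± 0.88, adjusted p = 0.575).

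In the ISG15 pathway 2 of 5 rose. ISG15 was at 15.8, 15.7 and 25.8 CPM in Sham and 51.2, 96.6 and 83.4 in IZ (2.01 ± 0.69, adjusted p = 0.0277), and UBE2L6, the enzyme that passes ISG15 to its ligases, at 12, 9.6 and 20 and 20.3, 61.6 and 45.6 (1.60 ± 0.51, adjusted p = 0.0173). Of the 4 sensors DHX58, the regulator LGP2, rose from 5.4, 4.53 and 6.73 to 15.9, 19.1 and 15.1 CPM (1.57 ± 0.48, adjusted p = 0.0145), and its row shares exons with KAT2A on the same strand. None of the 5 PARP and ubiquitin ligase genes passed.

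The count of 12 was 3 without Young Late Sham 2, the library of lowest depth, and 6 without Sham 1 or without IZ 2. BST2, IRF1 and IRF7 kept their call in each of these fits and in each of 8 other settings. All other calls, those of CXCL10, GBP1, GBP2, IRF9 and STAT2 among them, were lost without Sham 2. By preparation batch, the member level of batch 1 was 3.22 in Sham 2 and 3.67 in IZ 1. In batch 2 it was 2.63 and 3.69 in Sham 1 and 3, against 4.55 and 4.42 in IZ 2 and 3, so the IZ libraries were above the Sham libraries in either batch.

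Macrophage markers were also higher by group. Their sum ran from 77.05 to 85.53 CPM in Young Late Sham, from 694.7 to 904.4 in IZ and from 204.4 to 582.3 in BZ, and 9 of 9 rose in IZ. Library by library the order differed within IZ. There IZ 1 had the highest macrophage sum but the lowest member level, 3.67 against 4.55 and 4.42 in IZ 2 and 3. Within BZ, replicate 2 was the highest in both, with a member level of 4.21. Lymphocyte markers summed to between 50.66 and 60.65 CPM in Sham and between 56.78 and 74.59 in IZ, but 3 of 7 tested rose and 0 fell, with a median of 1.01. Most of that sum was CD79A, a B cell receptor chain, at 57.36, 58.92 and 47.5 CPM in Sham and 39.64, 45.6 and 39.35 in IZ, while NKG7, of cytotoxic lymphocytes, was at 1.9, 0.4 and 1.72 and 31.25, 16.51 and 13.96 CPM. Of the neutrophil markers 2 of 3 rose, and of the dendritic cell markers 1 of 4. In bulk tissue, more cells of a type and more RNA per cell cannot be told apart, and the part of the macrophages and lymphocytes in the change of the interferon-stimulated genes was not tested.

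In Young Late BZ 2 of 35 members rose and 0 fell, where 8.25% of all genes were called higher and 6% lower, so the share of members called was no larger than that of all genes. These were BST2, at 46.1, 84.7 and 37.8 CPM (1.48 ± 0.47, adjusted p = 0.0338), above every Sham library, and IRF1, at 21.5, 47.1 and 19.9 CPM (0.98 ± 0.32, adjusted p = 0.0417), with BZ 3 below Sham 3. The median over members was 0.33, against 0.02 over all genes. No member was called without BZ 2, Sham 1 or Sham 2. Both zones were set against the same Sham libraries, here and at every age and time below.

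**Figure D3:**
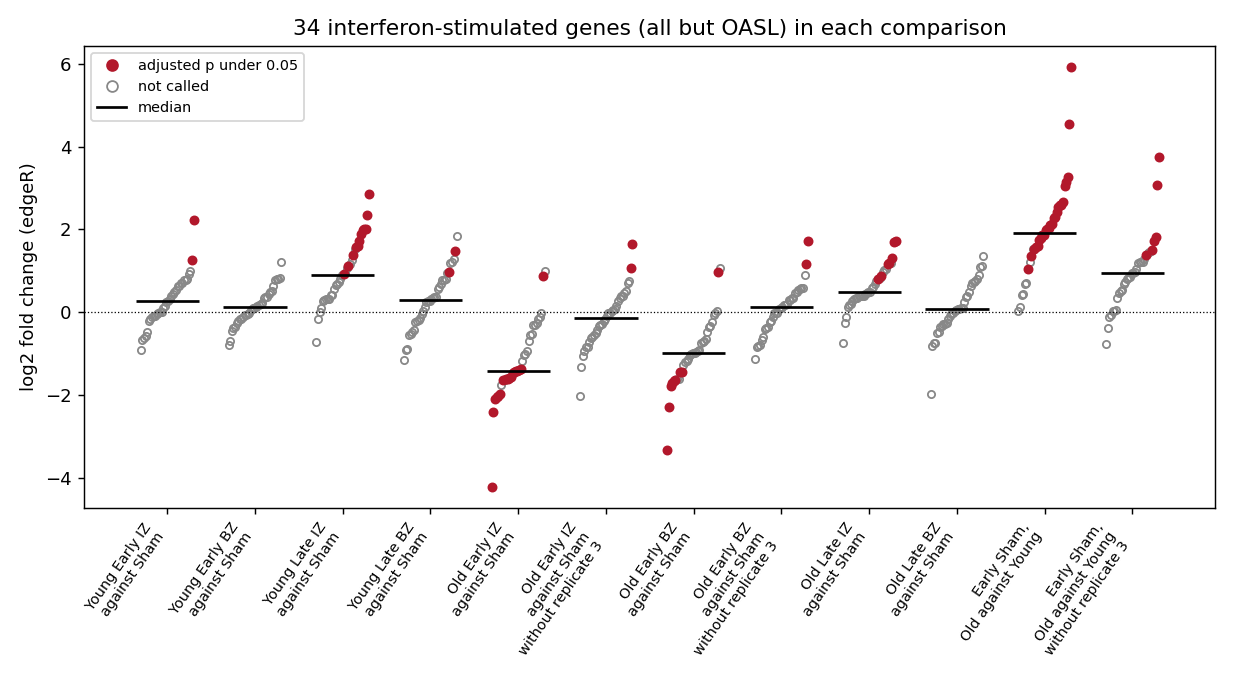
Log2 fold changes (edgeR) of 34 members, all but OASL, in each comparison with Sham and between the Early Sham groups, with and without Old Early Sham replicate 3; filled points had an adjusted p under 0.05 and lines are medians. The median lies at 0.91 in Young Late IZ and at −1.41 in Old Early IZ, and the latter moves to near zero without replicate 3.

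In the Old pigs 7 days after infarction, 7 of 35 members rose in the infarct zone and 0 fell, with a median of 0.50 (members) and −0.04 (all genes). Because 25.1% of all genes were called higher and 24% lower in this comparison, the share of members called higher was below that of all genes. The 7 were 3 of 4 transcription factors (IRF7, IRF1 and STAT2), 2 of 14 antiviral effectors (MX1 and BST2), DHX58 and TRIM25.

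IRF7 was at 12.6, 5.9 and 4.08 CPM in Old Late Sham and 32.4, 16.4 and 24.4 in IZ (1.69 ± 0.58, adjusted p = 0.0173). MX1 was at 25.3, 8.16 and 5.73 and 41.9, 32.2 and 56.6 CPM (1.73 ± 0.72, adjusted p = 0.0465). For both, all IZ libraries lay above all Sham libraries, with Sham 1 the highest Sham library.

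BST2 was at 36.9, 35 and 21.7 CPM in Sham and 95.8, 56.8 and 79.7 in IZ (1.31 ± 0.46, adjusted p = 0.0197). IRF1 was at 12.9, 11.4 and 10.3 and 24.1, 17.5 and 21.7 CPM (0.87 ± 0.32, adjusted p = 0.0254), again without overlap. TRIM25, a ubiquitin ligase that acts in RIG-I signalling, was at 3.77, 2.26 and 1.5 and 3.52, 5.62 and 7.78 CPM (1.16 ± 0.43, adjusted p = 0.0257), with Sham 1 above IZ 1.

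DHX58 (1.18 ± 0.46, adjusted p = 0.0359) and STAT2 (0.80 ± 0.31, adjusted p = 0.0316) completed the 7, each without overlap. The count was 0 without Sham 3, 1 without Sham 2, 2 without IZ 1 and 3 without IZ 3. It was 1 with RNA integrity as a covariate: the number was 7.8 to 8.4 in Old Late Sham and 7.1 to 7.6 in IZ, and its part in the result was not tested further. Macrophage markers summed to between 127.3 and 186.7 CPM in Sham and between 744.2 and 988.9 in IZ, with 8 of 9 higher. Of the other markers tested, 6 of 7 of lymphocytes (median 1.80), 3 of 3 of neutrophils and 3 of 4 of dendritic cells rose as well, and the part of none of these cells was tested. The lymphocyte sum was 32 to 45.03 CPM in Sham and 68.17 to 107.6 in IZ, most of it CD79A and NKG7. Several of the other markers had few counts, such as CD3D, at 0.24, 0.15 and 0.19 CPM in Sham and 0.42, 0.84 and 0.8 in IZ. The cardiomyocyte sum was 62230 to 67810 CPM in Sham and 17440 to 25160 in IZ.

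RSAD2 in Old Late showed how far sham pigs differed, at 33.3, 10.7 and 6.71 CPM in Sham, 3.69, 8.57 and 18 in IZ and 2.79, 2.86 and 7.19 in BZ, and it passed in neither zone. In Old Late Sham 1 all 35 members were above the mean of replicates 2 and 3, and that library had the highest RNA integrity number of all, 8.4.

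No member passed in Old Late BZ against Sham by edgeR, where 20% of all genes were called higher and 19.7% lower. There were 4 members at an unadjusted p under 0.05 and 3 called by DESeq2, and the median was 0.08 over members and −0.03 over all genes. BST2, at 87.3, 61 and 55.8 CPM in BZ, came nearest (1.12 ± 0.46, adjusted p = 0.0517), with every BZ library above every Sham library.

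A day after infarction in the Young pigs, few of the interferon-stimulated genes differed from sham ventricle. In Young Early IZ 2 of 35 members rose and 0 fell, where 15.2% of all genes were called higher and 12% lower, and the median was 0.25 over members and 0.08 over all genes. TRIM25 was at 0.97, 0.368 and 0.963 CPM in Sham and 2.72, 2.42 and 5.35 in IZ (2.23 ± 0.52, adjusted p = 0.00239). IFIT5, which binds RNA ends, was at 3.77, 6.2 and 4.54 and 12.8, 9.62 and 12.5 CPM (1.27 ± 0.32, adjusted p = 0.00461).

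All IZ libraries were above all Sham libraries for both, and both calls held without each library in turn and in each of 8 other settings. The IFIT5 row overlaps an exon of LIPA on the other strand. ISG15, at 14.3, 7.36 and 12.5 CPM in Sham and 8.88, 21.9 and 14.6 in IZ, overlapped, as did CXCL10, at 0.799, 0.42 and 1.03 and 0.774, 0.885 and 0.954 CPM. Macrophage markers summed to between 151.1 and 223.4 CPM in Sham and between 194.3 and 243.4 in IZ, with 3 of 9 higher, while the neutrophil sum was 0.1576 to 0.5706 CPM in Sham and 19.83 to 28.32 in IZ.

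No member passed in Young Early BZ by edgeR, nor by DESeq2, and 2 had an unadjusted p under 0.05. Of all genes, 0.784% were called higher and 0.33% lower, and the median over members, 0.11, was close to the 0.13 over all genes. In Young Early BZ 2, members were spread in both directions against the other BZ libraries: IFI6 was at 35.9, 262 and 31.5 CPM in BZ replicates 1, 2 and 3 and BST2 at 31.1, 124 and 35.4, while MX1 was at 4.1, 1.17 and 8.65. Without that library the count was again 0.

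In the Old pigs a day after infarction, the direction of the members turned on Old Early Sham 3. With all 3 Sham libraries, 18 of 35 members fell and 1 rose in IZ, where 19.5% of all genes were called higher and 14.8% lower, and the median was −1.41 over members and 0.00 over all genes. The 18 were 10 of 14 antiviral effectors, 3 of 5 in the ISG15 pathway, 3 of 4 sensors and 2 of 5 PARP and ubiquitin ligase genes, with OASL, of which only counts are given, among the effectors. For none of the 18 were the IZ libraries all below the Sham libraries.

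Without Old Early Sham 3, 2 of 35 members rose and 0 fell, where 15.8% of 14745 genes were called higher and 11% lower, and the median over members was −0.10. The fit of the IZ and Sham groups alone, which does not borrow its spread from the other groups, called 2 members with all libraries included. The share of all genes called in that fit is not given.

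RSAD2 shows the dependence. Its level was 16.5, 1.87 and 107 CPM in Sham, 0.825, 2.56 and 3.36 in IZ and 2.97, 4.66 and 4.88 in BZ, so that Sham 2 lay within the range of the infarcted libraries. The log2 fold change was −4.21 ± 0.93 (adjusted p = 0.000883) in IZ with Sham 3 and −2.02 ± 0.80 (adjusted p = 0.0604) without it. USP18, the protease that removes ISG15 and damps the receptor, was at 10.3, 3.75 and 25.6 CPM in Sham and 2.06, 3.6 and 4.37 in IZ (−1.99 ± 0.45, adjusted p = 0.00123, and −1.06 ± 0.42 with adjusted p = 0.0598 without Sham 3).

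IRF1 went the other way. It was at 10.6, 12.2 and 16.3 CPM in Sham, 22.3, 21.5 and 28.7 in IZ and 20.4, 35.3 and 21.3 in BZ, and rose by 0.89 ± 0.32 in IZ (adjusted p = 0.0318) and 0.97 ± 0.32 in BZ (adjusted p = 0.0284). Every infarcted library was above every Sham library, Sham 3 included. Without Sham 3 the values were 1.08 ± 0.37 (adjusted p = 0.0293) and 1.17 ± 0.37 (adjusted p = 0.0298).

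TRIM25 joined IRF1 once Sham 3 was left out, at 1.33, 1.56 and 3.78 CPM in Sham, 3.59, 3.83 and 6.18 in IZ and 2.91, 4.02 and 7.37 in BZ. It did not pass with Sham 3 in (0.99 ± 0.44 in IZ, adjusted p = 0.078) and rose without it (1.64 ± 0.50 in IZ, adjusted p = 0.0162, and 1.72 ± 0.50 in BZ, adjusted p = 0.0195). In Sham 3 TRIM25 overlapped the lowest IZ library.

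In Old Early BZ, 9 of 35 members fell and 1 rose with Sham 3, where 14.1% of all genes were called higher and 8.46% lower, with a median of −0.99. Without it 2 rose and 0 fell, where 10.4% were called higher and 5.39% lower, with a median of 0.12. The IZ count of 19 was also 9 without IZ 1, and the BZ count of 10 was 6 without BZ 2 and 18 without Sham 2. Macrophage markers summed to between 268.6 and 574.1 CPM in IZ and between 425.2 and 931.9 in BZ, above the 164.1 to 224.6 of Sham, and their part in these values was not tested.

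**Figure D4:**
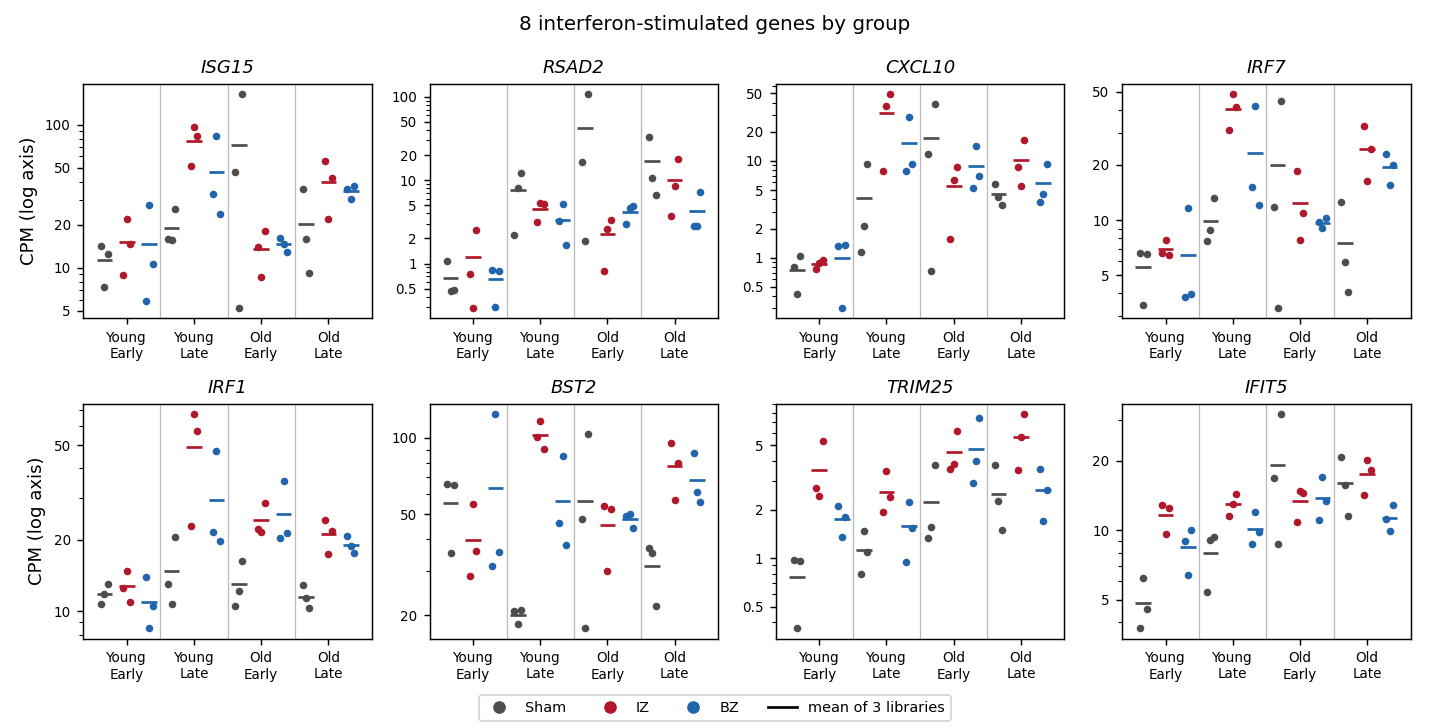
CPM (log axis) of 8 members in every library, by age and time, with Sham, IZ and BZ side by side and a line at the mean of 3. BST2, IRF1 and IRF7 separate IZ from Sham in Young Late and Old Late, while RSAD2 and ISG15 span their widest range among the Old Early Sham libraries.

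Between sham pigs, 27 of 35 members were higher in Old Early than in Young Early and 0 lower, where 17.5% of all genes were called higher and 13.6% lower. The median was 1.98 over members and 0.03 over all genes, all 35 were above zero, and 10 of the 27 had no overlap between libraries. These were 12 of 14 antiviral effectors, 4 of 5 in the ISG15 pathway, 3 of 4 sensors, 5 of 5 PARP and ubiquitin ligase genes, 2 of 3 in the guanylate-binding and chemokine group and 1 of 4 transcription factors. Without Old Early Sham 3 the count was 6 higher and 0 lower, where 8.95% of genes were called higher and 5.27% lower, with a median of 0.94.

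The 6 were RSAD2, IFIT5, EIF2AK2, DDX58, PARP14 and CXCL10. RSAD2 was at 1.08, 0.473 and 0.481 CPM in Young Early Sham and at 16.5 and 1.87 CPM in Old Early Sham 1 and 2, a difference of 3.74 ± 0.93 (adjusted p = 0.0161) without Sham 3 and 5.93 ± 1.08 (adjusted p = 0.00113) with it. IFIT5 was at 3.77, 6.2 and 4.54 CPM in Young and 16.8 and 8.69 in Old Early Sham 1 and 2 (1.40 ± 0.30, adjusted p = 0.00934 without Sham 3). Both lie above every Young Early Sham library in Sham 1 and in Sham 2.

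EIF2AK2, the kinase PKR that halts translation on double-stranded RNA, was at 4.68, 3.62 and 5.02 CPM in Young and 19.1, 6.19 and 38.7 in Old Early Sham (2.27 ± 0.45, adjusted p = 0.00176, and 1.51 ± 0.42, adjusted p = 0.0241 without Sham 3). PARP14, an ADP-ribosyltransferase, was at 2, 1.68 and 1.38 and 7.66, 4.22 and 30.2 CPM (3.06 ± 0.58, adjusted p = 0.00143, and 1.81 ± 0.51, adjusted p = 0.0252). DDX58 was at 3.77, 2.1 and 3.37 and 13.7, 6.45 and 61.1 CPM (3.15 ± 0.57, adjusted p = 0.00109, and 1.72 ± 0.46, adjusted p = 0.0202). In these 3 genes every Old Early Sham library exceeded every Young Early Sham library.

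CXCL10 was at 0.799, 0.42 and 1.03 CPM in Young Early Sham (4.55 ± 1.02, adjusted p = 0.00358, and 3.08 ± 0.99, adjusted p = 0.0402 without Sham 3), but Old Early Sham 2, at 0.729 CPM, overlapped the Young libraries. All Young Early libraries were of batch 1 and all Old Early libraries of batch 2, so age and batch cannot be told apart. With batch 2 as a term, estimated from Young Late, 6 members were called. The RNA integrity numbers were 6.4 to 6.9 in Young Early Sham and 7.1 to 7.6 in Old Early Sham, and with that number as a covariate the count of members was 20. The share of all genes called is not given for the fits with batch or RNA integrity.

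The ages were compared in the same way a week after surgery. In Late Sham 1 of 35 members was higher in Old than in Young and 0 lower, where 6.98% of all genes were called higher and 3.92% lower, with a median of 0.12 over members and 0.04 over all genes. This was IFIT5, at 5.4, 9.06 and 9.34 CPM in Young Late Sham and 20.7, 15.7 and 11.6 in Old Late Sham (1.03 ± 0.32, adjusted p = 0.0366), without overlap. The call was lost with batch 2 as a term, with RNA integrity as a covariate and without any of 4 of the 6 libraries.

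Among Young Sham pigs, 5 of 35 members were higher and 1 lower in Late than in Early, where 4.38% of all genes were called higher and 4.36% lower, with a median of 0.85 over members and −0.01 over all genes and 34 of 35 above zero. RSAD2 (3.43 ± 1.07, adjusted p = 0.0433), EIF2AK2 (1.64 ± 0.45, adjusted p = 0.0247), PARP9 (1.85 ± 0.48, adjusted p = 0.0202), PARP14 (1.88 ± 0.59, adjusted p = 0.0433) and GBP1 (1.96 ± 0.61, adjusted p = 0.0433) were higher, each without overlap. RSAD2 went from 1.08, 0.473 and 0.481 to 2.2, 8.13 and 12.2 CPM and PARP9, which works with the ligase DTX3L, from 3.77, 2.57 and 2.96 to 6.59, 12.9 and 14.3 CPM. PARP9 and DTX3L share exon bases on opposite strands.

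BST2 was the exception, lower in Young Late Sham, at 20.7, 18.5 and 20.9 CPM, than in Young Early Sham, at 65.9, 35 and 65.4 CPM (−1.47 ± 0.47, adjusted p = 0.0479). The count of 6 fell to 0 without any Young Early Sham library, without Young Late Sham 2 or 3, and with batch 2 as a term. Macrophage markers were lower in Young Late Sham, with 5 of 9 lower, 0 higher and a median of −1.35, and their sum was 151.1 to 223.4 CPM in Young Early Sham and 77.05 to 85.53 in Young Late Sham. Their part in these values was not tested.

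No member passed between Old Late and Old Early Sham by edgeR, nor by DESeq2, and 11 had an unadjusted p under 0.05. Of all genes 0.0206% were called higher and 0.00688% lower. The median over members was −0.85 with Old Early Sham 3 and 0.21 without it, when again no member passed and 0% of genes were called higher and 0% lower.

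The response to infarction, taken as IZ minus Sham, was compared between ages. In Early, 1 of 35 members had a lower response in Old and 0 a higher, where 0.537% of all genes were called higher and 0.378% lower, with a median of −1.49 over members and 0.01 over all genes. This was IFIT5 (−1.79 ± 0.44, adjusted p = 0.0493), at 3.77, 6.2 and 4.54 CPM in Young Early Sham, 12.8, 9.62 and 12.5 in Young Early IZ, 16.8, 8.69 and 31.7 in Old Early Sham and 10.9, 14.7 and 14.5 in Old Early IZ. Without Old Early Sham 3 no member was called, and 0% of genes were called higher and 0% lower, with a median of −0.41 over members.

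In Late, no member differed in response between Old and Young by edgeR or by DESeq2, and 0 had an unadjusted p under 0.05. Of all genes 1.31% had a higher and 2.35% a lower response in Old, and the median over members was −0.28, with 27 of 35 below zero. For IRF1 the difference was −0.84 ± 0.45 and for BST2 −1.04 ± 0.65, neither of which passed, so the larger rises in Young Late IZ than in Old Late IZ are not shown to differ.

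The infarct and border zones of the same pigs were compared with the pig as a block, over 34 members, OASL having too few counts there. In Young Early 2 of 34 members were higher in IZ and 0 lower, where 4.03% of 14386 genes were called higher and 6.68% lower. These were TRIM25, at 2.72, 2.42 and 5.35 CPM in IZ and 2.11, 1.35 and 1.8 in BZ (0.94 ± 0.24, adjusted p = 0.0316), and TRIM21, a cytosolic antibody receptor, at 4.27, 3.19 and 5.06 and 2.53, 1.13 and 3.01 (0.95 ± 0.25, adjusted p = 0.0319). Neither held without Young Early BZ 2, and leaving out any of the 6 libraries left at most 1.

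In Young Late the members were higher in the infarct zone of each pig without a call. The member level in IZ minus that in BZ was 0.45, 0.35 and 1.38 in the 3 pigs, with 30, 34 and 35 of 35 members higher. Both zones were prepared in batch 2 for the pig with 0.35 and in different batches for the other 2 pigs, which the fit did not model. All 34 members tested had a positive log2 fold change, with a median of 0.74 against −0.01 over all genes, and 25 had an unadjusted p under 0.05. None passed by edgeR or DESeq2 after adjustment, and edgeR called 0% of all genes higher and 0% lower. Macrophage markers had a median of 1.22 in the same comparison, with 0 of 9 called, and their part was not tested.

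In Old Late 1 of 34 members was higher in IZ and 0 lower, where 0.438% of all genes were called higher and 1.61% lower, and the differences in member level were 0.62, 0.12 and 0.74 in the 3 pigs. TRIM25, at 3.52, 5.62 and 7.78 CPM in IZ and 1.71, 2.63 and 3.56 in BZ of the same pigs in that order (1.06 ± 0.23, adjusted p = 0.0419), was the member called, and no member was called without any of the 6 libraries. The median was 0.48 over members and −0.02 over all genes, and DESeq2 called 5 members.

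In Old Early no member passed by edgeR or by DESeq2, 1 had an unadjusted p under 0.05, and 0% of all genes were called higher and 0% lower. The differences in member level were −0.30, −0.51 and 0.12 in the 3 pigs, and in Young Early 0.10, 0.14 and 0.35.

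Across the 36 libraries the members varied together. The median Pearson correlation over 595 pairs of members was 0.71, against 0.00 for pairs of all genes, and it was 0.70 for deviations from the group means and 0.68 without Old Early Sham 3. Of the member pairs 83.2% exceeded 0.5, and 77.3% without that library. These are descriptions over libraries that share groups and depth, and no test was made.

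IFIT1, an RNA-binding inhibitor of translation, followed the mean of the other members most closely (r = 0.96 over 36 libraries), with HERC5 at 0.95 and PARP14 at 0.94. The loosest were TRIM25 at 0.44, BST2 at 0.48, IRF1 at 0.60 and GBP2 at 0.61. None of these 4 was highest in Old Early Sham 3: TRIM25 peaked in Old Late IZ 3, BST2 in Young Early BZ 2, and IRF1 and GBP2 in Young Late IZ 2. Old Early Sham 3 was the highest of 36 libraries for 22 members, Young Late IZ 2 for 10 and Young Late IZ 3 for 1, CXCL10.

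The spread between pigs of a group was wider for the members than for most genes. The median SD of log2 CPM within a group was 0.66 for members and 0.40 for all genes over 12 groups. Over the 4 Sham groups it was 0.94 and 0.30, and over the 3 Sham groups other than Old Early Sham 0.53 and 0.31. In IZ it was 0.44 and 0.34, and in BZ 0.51 and 0.45, so the members' excess was larger among sham pigs. In Young Late Sham 3, 34 of 35 members were above the mean of replicates 1 and 2, and in Young Late BZ 2 all 35.

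**Figure D5:**
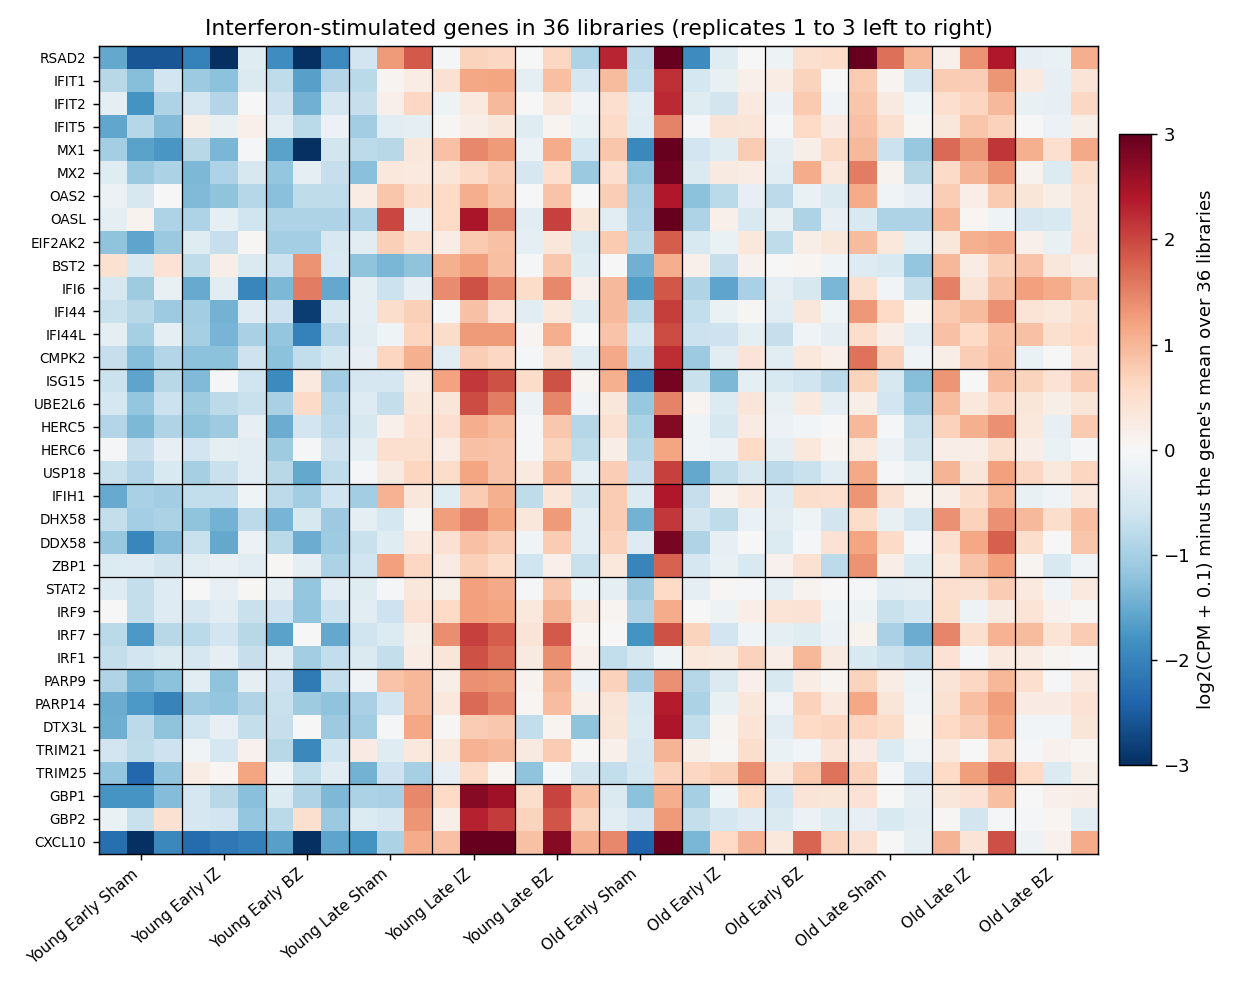
Log2 (CPM + 0.1) of each of the 35 members in each of the 36 libraries, less the member's mean over libraries and shown between −3 and 3, with members ordered by role and libraries by group. The column of Old Early Sham 3 is high for nearly every member, IRF1 being near its mean, and the Young Early columns are low for most.

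Several members are neighbours in the genome. RSAD2 (chromosome 3, 128880859 to 128898072, minus strand) and CMPK2 (chromosome 3, 128903590 to 128917867, plus strand), a nucleotide kinase, lie side by side, as do MX2 and MX1 on chromosome 13, HERC5 and HERC6 on chromosome 8, and IFIT2, IFIT1 and IFIT5 on chromosome 14. Coordinates are those of the deposited table, whose genome build is not given in the sources used here. The row of IFIT1 (chromosome 14, 101213979 to 101251108) spans the place of IFIT3, and that of OAS2 (chromosome 14, 38827673 to 38860820) the place of OAS1, in RefSeq's Sscrofa11.1. The row of IFI44L spans IFI44, and that of GBP1 spans GBP2. Reads of such neighbours, and of the similar MX, IFIT and GBP copies, may be divided between rows in ways that cannot be checked here, and without a stated strand setting the same holds for overlapping genes on opposite strands.

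Around the members, 6 lists of other interferon pathway genes held 84 genes, of which 66 matched a symbol. The counts below stand against the share of all genes called higher and lower, which was 17.2% and 13% for Young Late IZ, 25.1% and 24% for Old Late IZ, 15.2% and 12% for Young Early IZ and 19.5% and 14.8% for Old Early IZ. Old Early Sham 3 is included in the Old Early IZ counts, and no count without it is given for these lists. Of 5 receptors tested, 2 rose in Young Late IZ, IFNGR1 (1.23 ± 0.19) and IFNAR2 (0.91 ± 0.18), and 2 in Old Late IZ, IFNAR2 (1.47 ± 0.18) and IFNGR1 (1.01 ± 0.19). In Early IZ 3 of 5 rose at each age, among them IFNAR1 (2.19 ± 0.51) in Young and IFNGR1 (0.90 ± 0.19) in Old. None of the 5 fell in these comparisons.

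Of 12 JAK-STAT genes and their inhibitors, 4 rose and 2 fell in Young Late IZ. PTPN6, a phosphatase of blood cells, rose (1.89 ± 0.49), while TYK2 fell (−1.22 ± 0.30). In Old Late IZ 4 rose and 2 fell, led by PTPN6 (2.58 ± 0.50) and SOCS3 (2.06 ± 0.34). SOCS3, a feedback inhibitor that responds to interleukin 6 as well as interferon, also rose in Young Early IZ (2.61 ± 0.34) and in Old Early IZ (3.62 ± 0.35), where 4 and 3 of 12 rose and 0 and 1 fell. In Old Late IZ these shares were near those of all genes, and so was the share that fell in Young Late IZ.

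Of 14 sensors and adaptors outside the members, 7 rose and 2 fell in Young Late IZ, led by CGAS (3.83 ± 0.81), the sensor of cytosolic DNA, with 5 counts over the Sham libraries and 87 over the IZ libraries, and TLR9 (3.35 ± 0.57). In Old Late IZ 8 rose and 2 fell, led by the kinase IKBKE (4.47 ± 0.53) and TLR8 (4.04 ± 0.59). The share that fell in Old Late IZ was below that of all genes. The sum of the 15 genes found was lower in IZ than in Sham. It was 263.9 to 284.6 against 329.3 to 459.3 CPM in Young Late and 261.5 to 285.1 against 417.8 to 492 in Old Late. Its largest part was the adaptor MAVS, at 232, 347 and 223 CPM in Young Late Sham and 104, 135 and 128 in Young Late IZ. In Early IZ 6 rose and 1 fell at each age. IKBKE rose at either age (1.80 ± 0.48 in Young and 3.74 ± 0.52 in Old), and TLR8, also called in Young, had 1 count over the Sham libraries and 85 over the IZ libraries, so no fold is given. TLR8 and TLR9 are endosomal receptors of immune cells, and 9 of 9 macrophage markers rose in Young Late IZ, 8 in Old Late IZ, 5 in Old Early IZ and 3 in Young Early IZ. The part of macrophages in the changes of this list was not tested.

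Of 12 antigen presentation genes, 8 rose and 0 fell in Young Late IZ, led by the immunoproteasome subunit PSMB9 (2.08 ± 0.41) and the peptide transporter TAP1 (1.63 ± 0.45). In Old Late IZ 2 rose, CIITA (1.14 ± 0.29) and CD74 (1.09 ± 0.44), in Young Early IZ 1 and in Old Early IZ 0, with none lower, and these 3 shares were below those of all genes called higher. The Old Early IZ count includes Old Early Sham 3. TAP1 stood at 14.9, 9.89 and 30.2 CPM in Old Early Sham replicates 1, 2 and 3, and CD74 at 570, 524 and 618. The median difference between the Late responses, Old minus Young, was −0.74 over these 12 genes, with 0 called.

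Of 16 further interferon-inducible genes, 8 rose and 1 fell in Young Late IZ, led by ISG20, an RNA exonuclease (5.34 ± 1.03, from 4 counts over the Sham libraries to 187 over the IZ libraries), and CXCL9 (3.90 ± 0.87). In Old Late IZ 6 rose and 0 fell, led by ISG20 (3.97 ± 1.11, from 4 to 100 counts) and CCL5 (1.78 ± 0.69). Between Early Sham groups 9 of 16 were higher in Old and 0 lower with Old Early Sham 3 included, where 17.5% of all genes were called higher and 13.6% lower. Among them were CXCL9 (2.73 ± 0.94) and EPSTI1 (2.48 ± 0.69). The sum of the 17 genes found ran from 92.85 to 379.7 CPM in Old Early Sham and from 83.05 to 103.2 in Young Early Sham. No fit without Old Early Sham 3 is given for this list. CXCL11, also called, had 0 counts in each Young Early Sham library and 9, 0 and 6 in Old Early Sham, so no fold is given.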

How the data were processed

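The 36 libraries came from the left ventricles of 24 pigs, 3 to a group. They were stranded and made from polyA RNA, per the labels' protocols. The submitters' processing notes name STAR 2.2.1 and featureCounts of Subread 1.5.1, after Trimmomatic 0.36 and bcl2fastq 2.19.0.316; the genome build and the strand setting of the counting are not given in the sources used here. The authors deposited an integer count for each gene and library, not normalized, and the exon length of each gene.

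Symbols were paired with Ensembl identifiers through a reference table (14857 of 25880 rows). Members were the rows with a listed symbol. The members, lists and tests were chosen with earlier results of these data known. A member's values are printed where it was called in the comparison described or shows the spread of a group, and at most 2 called genes are named from each list and comparison.

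Counts were filtered with filterByExpr (minimum count 10, minimum total 15), TMM scaled, and tested in edgeR 4.0.16 (R 4.3.3) with the quasi-likelihood test, with 12 group means, 24 residual degrees of freedom and Benjamini-Hochberg adjustment over 14537 genes. The threshold for a call was 0.05. This fit took the IZ and BZ libraries of a pig as independent. In limma-voom the correlation within a pig was estimated at 0.378 over the 36 libraries. IZ was compared with BZ in a fit of 24 libraries with the pig as a block (14386 genes, 8 residual degrees of freedom). The 18 comparisons share libraries and are not independent. Log2 CPM used a prior count of 2. The tests were tried on simulated data first. Alternatives included DESeq2 1.42.0 and limma 3.58.1, each library left out, and a fit chosen after seeing the data, the older quasi-likelihood fit of edgeR.

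Pairs come from the pig number in the titles. Deviations from group means correlated at a median of 0.51 (−0.20 to 0.67) for 12 IZ and BZ pairs of a pig and −0.20 (−0.54 to 0.19) for 24 pairs of different pigs; in Young Late the pairs of a pig stood at −0.20, −0.04 and −0.05. Deviations from a group mean cancel out within the group, so positive values for the same pig bring negative ones for different pigs. The values for different pigs are therefore no independent check of the pairs. For Old Late BZ 3 the title and the individual label name different pigs, and the title was used (r = 0.67 with the IZ of that pig). Of 13708 named rows, 98.7% overlapped the RefSeq gene of that name in Sscrofa11.1. Library totals were 8.11 to 39.8 M counts, and counting error limits genes with few counts.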

Additional observations from a re-analysis of the deposited data

Results flagged for a closer look

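IFIT5 differed between ages in its response to infarction at 1 day, by a test of the difference itself. The response in Old minus that in Young was −1.79 (log2; SE 0.44, adjusted p = 0.0493 by edgeR). Its levels were 3.77, 6.2 and 4.54 CPM in Young Early Sham, 12.8, 9.62 and 12.5 in Young Early IZ, 16.8, 8.69 and 31.7 in Old Early Sham and 10.9, 14.7 and 14.5 in Old Early IZ. The infarct zones of the ages overlapped, and the Sham groups did not. The call held in 3 of 8 other settings and in 2 of 12 fits that left out a library, and it was lost without Old Early Sham 3. Age and preparation batch cannot be told apart in the Early groups.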

How the results depend on the processing

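Depth limits the low members, OASL most, and 3 libraries a group limit every call. Of 90 member calls, 1269 alternatives kept 889, lost 376 and reversed 4. The reversals came without Old Early Sham 3: with each library left out, MX2 ran from −2.12 to 0.15 in Old Early IZ, and OASL, on a few counts, from −5.45 to 0.85 in Old Early IZ, from −5.01 to 0.65 in Old Early BZ and from −1.01 to 4.92 between Early Shams.

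Numbers of members called moved as follows. Unless printed beside a count, here, above or below, the share of all genes called in that setting is not given. That share can move with the setting as well. Such counts show how the number of members moved, not whether members were called more often than all genes. Fitted without the other groups, they were 4 in Young Early IZ, 2 in Old Early IZ, 1 in Old Early BZ, 12 in Old Late IZ, 8 in Old Late BZ, 9 between Early Shams, 11 between Young Shams, and 0 and 9 for IZ against BZ in Young Early and Old Late. With RNA integrity as a covariate they were 0 in Young Late BZ, 11 in Old Early IZ, 1 in Old Late IZ, 0 between Late Shams, 1 between Young Shams, 0 for the Early response and 2 for IZ against BZ in Old Late. With batch 2 as a term they were 1 in Old Late BZ, 6 between Early Shams, and 0 between Late Shams, between Young Shams and for the Early response.

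With the pig as a random replicate block in limma-voom they were 0 in Young Late BZ, 6 in Old Early IZ, 3 in Old Early BZ, 2 in Old Late BZ, 15 between Early Shams, 0 between Young Shams, 0 for the Early response and 3 for IZ against BZ in Old Late. With no replicate block, IZ against BZ gave 0 in Young Early and 0 in Old Late, and with the other pig label of Old Late BZ 3 it gave 1 and 0. By DESeq2 they were 3 in Old Late BZ, 6 for the Early response, and 4 and 5 for IZ against BZ in Young Early and Old Late. Size factors of DESeq2 gave 1 in Old Late BZ, no count filter 2 between Young Shams and 0 for the Early response, and the older edgeR fit, added after seeing the data, 0 for the Early response. The cause of these moves was not tested.

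With each library left out in turn, the counts ran from 3 to 13 in Young Late IZ, 0 to 2 in Young Late BZ, 2 to 24 in Old Early IZ, 2 to 18 in Old Early BZ, 0 to 8 in Old Late IZ and 0 to 1 in Old Late BZ. They ran from 6 to 31 between Early Shams, 0 to 1 between Late Shams, 0 to 8 between Young Shams, 0 to 1 between Old Shams, 0 to 4 for the Early response and 0 to 1 for the Late response. For IZ against BZ they ran from 0 to 1 in Young Early and were 0 in Old Late. The gap of Old Early Sham 3 to its group ran from 1.55 to 3.01, and in the other settings from 2.27 to 2.34.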

Other observations

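The 10 genes outside the list that most exceeded the higher of the other Old Early Sham libraries in replicate 3 were IL20RA, ETV7, NELL2, PNPLA3, RGS1, UNC93B1, CYP2S1, LY6E, BATF2 and FCGR1A, taken among named genes with a mean log2 CPM of at least 0. ETV7, a transcriptional repressor, stood at 1.76, 0.208 and 12.3 CPM in replicates 1, 2 and 3, and BATF2 at 0.692, 0.208 and 3.13 CPM. UNC93B1, which carries Toll-like receptors to endosomes, stood at 4.2, 3.33 and 20.4 CPM, and LY6E at 6.06, 4.48 and 26.6 CPM. FCGR1A, an antibody receptor of myeloid cells, stood at 1.7, 1.09 and 7.26 CPM and RGS1 at 0.372, 0.625 and 3.36 CPM. ETV7, BATF2, LY6E, UNC93B1 and FCGR1A are known to respond to interferon. IL20RA stood at 0, 0.104 and 5.81 CPM, NELL2 at 0.798, 0.364 and 5.77 CPM, PNPLA3 at 0.904, 0.989 and 5.69 CPM and CYP2S1 at 0.213, 0.364 and 1.95 CPM.

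In Young Early BZ 2, 6 members were more than 2-fold above the mean of the other BZ libraries (GBP2, UBE2L6, IRF7, ISG15, BST2 and IFI6; median exon length 2.06 kb) and 7 more than 2-fold below (IFI44, MX1, CXCL10, PARP9, TRIM21, RSAD2 and IFI44L; 3.17 kb). That library also had the highest cardiomyocyte sum, 124000 CPM. Such length trends were not limited to that library. Over the members, exon length was correlated (Spearman) with a library's deviation from the others of its group. This was −0.22 in Young Early BZ 2, −0.53 in Old Early BZ 1 and in Old Late IZ 1, and 0.49 in Young Late IZ 3. In Old Early Sham 3 it was 0.09. The part of transcript length in this split, or in the other results, was not tested.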
